A study of Mus musculus with 16 samples.

Results

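The comparison set the earlier against the later title date among libraries of vehicle-treated mice: 8 of the 16 libraries of the series, 4 titled 1 October and 4 titled 2 October. They were chosen by their titles and treatment label, not by any measured value. Each date held 2 libraries of each genotype, fl/fl replicates 1 and 2 and CKO replicates 1 and 2 on 1 October, and fl/fl and CKO replicates 3 and 4 on 2 October. The labels do not say whether the title date marks a dissection, a cell sort or a library preparation, so it is called the title date here.

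Bulk RNA was sequenced from mouse dorsal root ganglia at levels L3 to L5, the ganglia that house the cell bodies of hindlimb sensory neurons. All groups were male mice 8 to 16 weeks old that received a fluorescent wheat germ agglutinin tracer in the paw 16 days after the last of 3 injections, and per the design text tracer-positive neurons were sorted from dissociated ganglia on day 18. The fl/fl mice (LTbR-fl/fl) carry a floxed Ltbr gene, which encodes the lymphotoxin beta receptor, and no Cre is named for them. The CKO mice (Nav1.8/LTbR CKO) carry the same floxed gene with Cre under the Nav1.8 promoter, so deletion is limited to cells with a history of Nav1.8 expression, mostly nociceptors. The 8 libraries studied here carry the treatment label Water. The other 8 come from paclitaxel (PTX) treated mice, 3 doses of 6 mg/kg, titled 24 and 25 September, 2 libraries per genotype and date, and serve only as the closest comparison of the same shape. The treatment protocol attached to the vehicle libraries also describes PTX, and the Water label was followed. The design text states 3 samples per group and the labels list 4, and nothing says that replicates came from separate animals, so p-values reflect only library-to-library variation, part of which may be technical.

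Sensory neurons are recognised by peripherin, tubulins, neurofilaments and the transcription factors of their lineage, and nociceptors among them by the sodium channel Nav1.8 and neuropeptides such as CGRP. In the ganglion each neuron is wrapped by satellite glia, its axon is accompanied by Schwann cells, and macrophages, fibroblasts and vessel cells lie between them. Neutrophils are short-lived granulocytes of blood and bone marrow whose transcripts are dominated by S100a8, S100a9 and granule proteins.

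The 8 vehicle libraries held 8477798 to 11606583 counts on genes, within the range of 7906504 to 11668007 for all 16, and 12669 to 14787 genes with a count. Between 32.9% and 39.1% of counted alignments were assigned to genes. Gene counts averaged 9524950 ± 943616 on 1 October and 10817700 ± 1080260 on 2 October (SD, n = 4 each, exact permutation p = 0.114). None of the 6 depth and assignment measures passed after adjustment (exact permutation test, two-sided, smallest adjusted p 0.229 over 8 measures including Ltbr and Scn10a). The smallest p this test can give is 0.0286 before adjustment, so it could hardly show a difference. In each genotype both later libraries held more gene counts than both earlier ones. With permutation restricted within genotype, gene counts gave p = 0.0556, the smallest value possible there. For rank correlations of gene counts, pairs of the same date and genotype averaged 0.815 over 4 pairs, pairs that shared neither averaged 0.808 over 8, pairs of the same date alone 0.792 over 8 and pairs of the same genotype alone 0.788 over 8. No pair of the same group was a repeat of one library (lowest chi-square per degree of freedom 68.6). Against the sort described, pan-neuronal markers took only 0.0917% to 0.766% of gene counts in these libraries, and neutrophil markers took 8.00% to 20.3%.

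With genotype as a block, no gene passed the threshold between the dates. Of 13361 genes tested, 0 (0%) had an adjusted p under 0.05 in edgeR's quasi-likelihood test with Benjamini-Hochberg adjustment, the smallest adjusted p was 1.00, and 413 (3.09%) had an unadjusted p under 0.05, 302 of them higher on 2 October and 111 lower. That 3.09% is below the share that a threshold of 0.05 gives when no gene differs. With 4 means of genotype by date in the fit, 761 genes had an unadjusted p under 0.05 and 0 were called. limma-voom likewise called 0 genes (699 at unadjusted p under 0.05), and DESeq2 called 42, 38 higher and 4 lower. A fit that took its spread from all 16 libraries called 27, each higher on 2 October. Counting only whether the 4 libraries of each date overlapped, 263 genes (1.97%) were higher in every library of 2 October and 105 (0.786%) were lower in each. The median difference of all tested genes was 0.0015 on the log2 scale, and the biological coefficient of variation was 0.929. The genes with the smallest p-values are given with their values, as genes that did not pass. Except for Scn10a and Calca, named by other rules, they were taken only from genes whose dates did not overlap. Their separation is therefore part of that rule and not a result.

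The genes with the smallest p-values among those higher on the later date included sensory neuron genes. Scn10a encodes Nav1.8, the channel whose promoter drives Cre in the CKO mice. In fl/fl libraries it stood at 20.2 and 29.1 CPM on 1 October and at 146 and 148 CPM on 2 October. CPM are counts of the gene scaled to its library's counts on tested genes, adjusted by the library's TMM factor. In CKO libraries it stood at 48.5 and 50.2 CPM on the first date and at 101 and 124 CPM on the second. Every library of 2 October was above every library of 1 October, with a difference of 1.88 ± 0.37 (log2, SE) and an unadjusted p of 0.000463 that did not survive adjustment over all genes in edgeR. On log2(CPM + 1) the exact permutation test over 70 assignments gave p = 0.0286, the smallest it can give, or 0.229 after adjustment over 8 measures. With permutation restricted within genotype, 36 assignments, the smallest possible p is 0.0556, and that was the value. With fewer neurons in a bulk sample and less RNA per neuron, the same values would be read, and the 2 cannot be told apart here.

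Prdm12, a transcription factor of the nociceptor lineage, was picked for the same separation. It was at 8.36 and 2.99 CPM in fl/fl and 4.46 and 11.2 CPM in CKO on 1 October. On 2 October it was at 66.3 and 42.1 CPM in fl/fl and 49.9 and 38.0 CPM in CKO. Its lowest later library lay above its highest earlier one, and the difference was 2.87 ± 0.59 in the fit. Prph, the intermediate filament peripherin, read 197, 202, 303 and 149 CPM on the earlier date (fl/fl 1 and 2, then CKO 1 and 2) and 777, 652, 396 and 669 CPM on the later one (fl/fl 3 and 4, then CKO 3 and 4). Its dates did not overlap and differed by 1.54 ± 0.34. Calca, which encodes the neuropeptide CGRP, read 268, 425, 629 and 282 CPM on 1 October and 1102, 1155, 1291 and 743 CPM on 2 October in the same order of libraries, a difference of 1.43 ± 0.37.

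Cacna2d1, the calcium channel subunit bound by gabapentin, read 18.8, 22.6, 11.2 and 11.5 CPM on the earlier date and 55.5, 49.3, 76.0 and 52.6 CPM on the later, a difference of 1.92 ± 0.43. Tubb2a, a beta-tubulin, read 88.6, 57.4, 108 and 101 CPM and then 240, 226, 186 and 197 CPM, a difference of 1.27 ± 0.29. Near-identical tubulin genes can share reads, so its counts are less certain. Sgpp2, a sphingosine-1-phosphate phosphatase, read 10.4, 11, 20.8 and 23.4 CPM and then 63.7, 38.8, 73.1 and 59.6 CPM. Separation of the dates was a condition for naming these 3 genes.

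**Figure D1:**
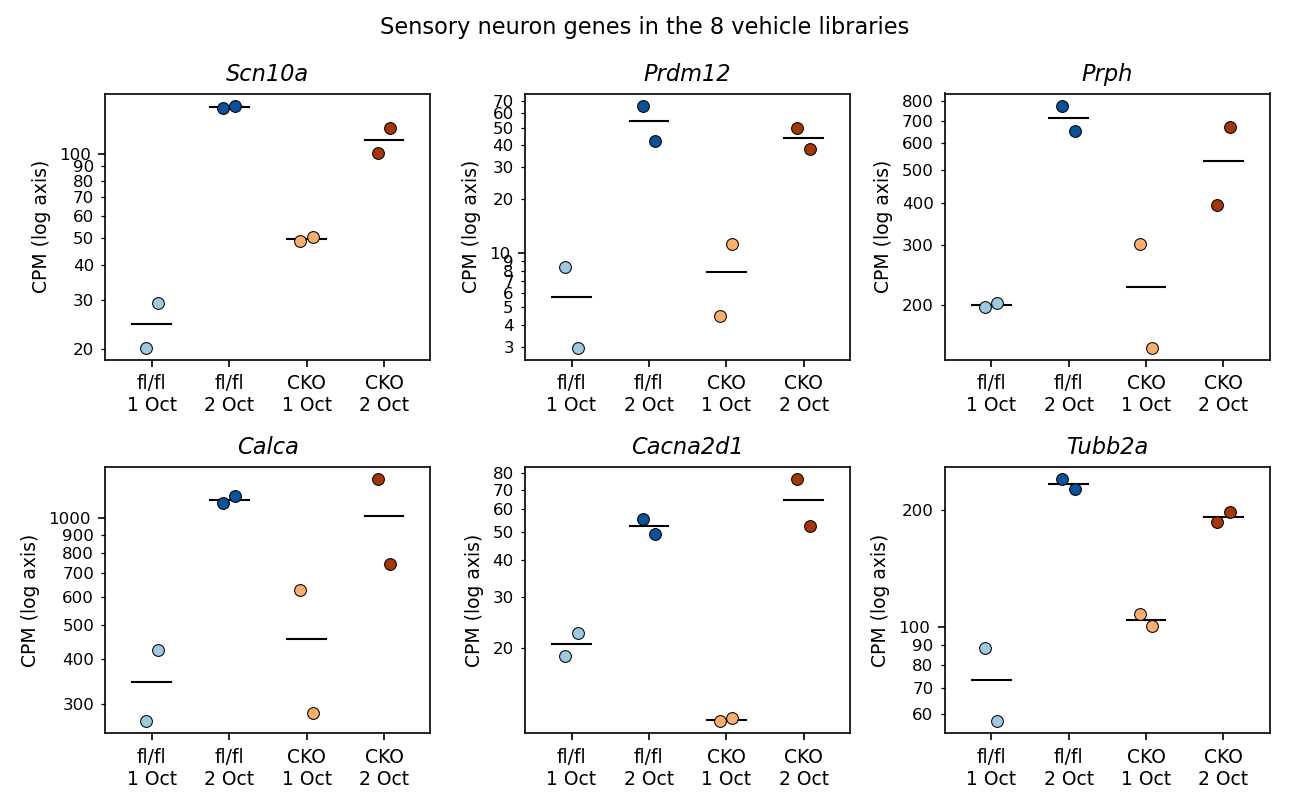
CPM (log axis) of 6 sensory neuron genes in the 8 vehicle libraries, by genotype and title date. Each point is a library and each bar the mean of 2. In each panel the 4 libraries of 2 October lie above the 4 of 1 October, by 1.88 ± 0.37 on the log2 scale for Scn10a and 1.27 ± 0.29 for Tubb2a. That separation was a condition for naming Prdm12, Prph, Cacna2d1 and Tubb2a.

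2 of the genes with the smallest p-values were close to absent on 1 October. Prkaa2, the alpha-2 catalytic subunit of AMP-activated kinase, had 1 count in the 4 earlier libraries together and 962 in the later ones. It stood at 33.7 and 30.7 CPM in fl/fl and at 10.0 and 5.52 CPM in CKO on 2 October. The ratio of counts scaled to library size was 825, with an interval of 148 to 32631 that covers counting error only. Mpv17l, a mitochondrial membrane protein, had 4 counts on the earlier date and 667 on the later, with 5.84, 15.6, 21.9 and 21.0 CPM in the later libraries. In the fit with all 16 libraries edgeR gave adjusted p-values of 0.00233 for Prkaa2, 0.00282 for Scn10a, 0.00725 for Cacna2d1, 0.0228 for Prdm12, 0.0266 for both Prph and Tubb2a, 0.0344 for Mpv17l and 0.0497 for Calca, while Sgpp2 did not pass at 0.0558. These calls therefore turn on where the spread is estimated.

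Of the 18 pan-neuronal markers, none (0) was called, all 18 had a log2 difference above 0, 7 had an unadjusted p under 0.05, and in 5 the dates did not overlap, beside 1.97% of all genes. The 5, named after their values were seen, were Prph, Prdm12, Stmn2, Elavl4 and Isl1. Prph and Prdm12 are the genes already picked above. Prdm12 belongs to the nociceptor lineage, so the list is not made only of genes shared by all neurons. Stmn2, a microtubule regulator of growing axons, ranged from 133 to 297 CPM on 1 October and from 380 to 659 CPM on 2 October. Elavl4, an RNA-binding protein of neurons, ranged from 22.5 to 95.7 CPM and then from 128 to 196 CPM. The list's median was 1.14 (log2), beside 0.0015 for all genes.

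Other pan-neuronal members did not separate. Tubb3, the neuronal beta-tubulin, read 421, 142, 413 and 168 CPM on 1 October and 644, 949, 388 and 545 CPM on 2 October, 1.09 ± 0.44 in the fit with overlapping dates. Nefl, the neurofilament light chain of large myelinated neurons, read 552, 67.4, 576 and 144 CPM and then 297, 1210, 139 and 384 CPM, 0.41 ± 0.79. Its value turned to -0.112 without fl/fl replicate 2 and to -0.308 without fl/fl replicate 4. Nefm and Nefh likewise differed more between the 2 libraries of a date and genotype than between dates, with differences of 0.06 ± 0.86 and 0.18 ± 0.99. Replicate 4 of fl/fl held the highest Nefl, Nefm and Nefh levels of the 8 libraries.

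Among 12 tested peptidergic nociceptor markers 0 were called, 11 had a difference above 0, 4 did not overlap, beside 1.97% of all genes, and the median was 1.5. They included Calca, Scn10a and Adcyap1, the last named after its values were seen. Tac1, which encodes substance P, overlapped: 49.2, 199, 297 and 90.5 CPM, then 676, 296, 408 and 381 CPM, 1.5 ± 0.54. The 13 tested non-peptidergic markers had a median of 1.04, with only Scn10a apart between dates. Gfra2, a receptor for neurturin, read 27.7 to 101 CPM on the earlier date and 44.4 to 98.0 CPM on the later.

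Summed over each list, peptidergic markers took 0.0843% ± 0.0397 of gene counts on 1 October and 0.228% ± 0.0673 on 2 October (SD, n = 4 each), and non-peptidergic markers 0.0340% ± 0.00801 and 0.0614% ± 0.0174, each without overlap. Scn10a is a member of both lists, so their shares are not independent. The non-peptidergic dates were barely apart, with 0.0405% in CKO replicate 1 of 1 October and 0.0421% in CKO replicate 3 of 2 October. Whether that list stays apart without Scn10a was not tested. The pan-neuronal share overlapped between dates, at 0.238%, 0.0917%, 0.383% and 0.134% and then 0.463%, 0.766%, 0.213% and 0.303%. Among neurons of other classes, the 17 markers of myelinated mechanoreceptors and proprioceptors had a median of -0.16, the 6 tested markers of C low-threshold and cold-sensing neurons one of 0.45, and the 4 of 12 itch neuron markers abundant enough to test one of 0.62. The neutrophil share overlapped fully between the dates (14.6% ± 5.14 and 14.5% ± 6.41). With neutrophil markers as a covariate the Scn10a difference was 1.77 and the Prdm12 difference 2.81 (adjusted p = 0.668 and 0.706 in edgeR). A covariate that hardly differs between dates can hardly move a date difference, so these values do not show whether neutrophil content matters. With the mean level of the pan-neuronal list as a covariate the Scn10a and Prdm12 differences were 1.61 and 3.18, while Tubb3 went to -0.04. None of the 3 passed in that fit (adjusted p = 0.870, 0.866 and 0.996 in edgeR). Prdm12 and Tubb3 are members of that list and were adjusted in part for themselves, so their values cannot set them apart from it.

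The pathway lists of channels and axonal genes had medians above 0 with genotype as a block, again with 0 calls. The medians came mostly from fl/fl: they were 1.13 in fl/fl and 0.33 in CKO for sodium channels, 1.26 and 0.17 for calcium, HCN and TRP channels, 0.79 and 0.12 for tubulins and microtubule-associated proteins, and 1.34 and -0.08 for synaptic vesicle genes. The share of all genes higher without overlap was 1.97%, to be read beside each count that follows. Of 11 voltage-gated sodium channel genes 2 did not overlap, Scn10a and the subunit Scn2b, both higher on 2 October, with a list median of 0.48. Of 22 calcium, HCN and TRP channel genes 2 did not overlap, Cacna2d1 and Hcn4, and the median was 1.06, while Trpv1, the capsaicin receptor, read 26, 5.53, 98.4 and 116 CPM and then 119, 63.7, 95.4 and 69.7 CPM. Its later libraries were above the earlier ones in fl/fl and below them in CKO, and the genotype difference did not pass (adjusted p = 0.215 in edgeR). Of 30 tubulins and microtubule-associated proteins 26 had a difference above 0 and 4 did not overlap, Tuba1a, Tubb2a, Stmn2 and Mtap7. Tuba1a, an alpha-tubulin, read 533, 501, 511 and 425 CPM on 1 October and 919, 912, 747 and 732 CPM on 2 October. Of 26 synaptic vesicle genes 22 were above 0 and 3 did not overlap. The 3 were Slc17a6, the glutamate transporter of sensory neurons, at 13.4 to 36 and then 39.5 to 103 CPM, Rab3c and Unc13a, all named after their values were seen, like Scn2b, Hcn4, Tuba1a and Mtap7. Of 16 axon injury and regeneration genes 8 were above 0, 0 did not overlap and the median was 0.13. The 40 cytosolic ribosomal protein genes had 20 above 0, 0 called and a median of -0.01.

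Fewer genes were lower on the later date, 111 against 302 at an unadjusted p under 0.05 in edgeR. Fbxo18, a DNA helicase with an F-box, read 59.7, 99.6, 76.5 and 77.2 CPM on 1 October and 36.6, 24.5, 32.8 and 35.6 CPM on 2 October, -1.28 ± 0.34. Exosc10, a nuclease of the RNA exosome, read 50.4, 94.8, 87.1 and 94.9 CPM and then 34.8, 38.7, 31.6 and 22.9 CPM, -1.36 ± 0.36. Both genes were lower in each later library than in any earlier one, which was a condition for naming them. Ttk, a kinase of the mitotic checkpoint, had 353 counts on the earlier date and 2 on the later, a ratio of 206 with a counting interval of 56.5 to 1705. Ddx11, a DNA helicase, had 250 and 3 counts, a ratio of 97.1 with an interval of 32.9 to 474. Phf13, Cmah, Zfp868 and Cherp differed by -1.81 ± 0.53, -1.90 ± 0.59, -1.81 ± 0.57 and -1.49 ± 0.47. None of the 8 passed adjustment in edgeR. In DESeq2 Ttk (adjusted p = 0.00409) and Ddx11 (adjusted p = 0.0183) passed and the others did not. The list of 22 proliferation genes had a median of 0.14.

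Ltbr, the floxed gene, overlapped between the dates. It read 40.1, 48.6, 93.6 and 51.4 CPM on 1 October and 45.6, 44.4, 31.3 and 30.5 CPM on 2 October, -0.60 ± 0.40, with an exact permutation p of 0.114. The CKO libraries were above the fl/fl libraries on the earlier date and below them on the later one. The Ltbr transcripts of cells outside the Nav1.8 lineage remain in a bulk sample, so the gene is a weak check of the genotype labels.

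The dates were then compared inside each genotype, 2 libraries against 2. In fl/fl, 1 gene passed (0.00748%): Mmp8, a neutrophil collagenase, fell from 3382 and 3045 CPM to 899 and 899 CPM, -1.84 ± 0.18, adjusted p = 0.0325 in edgeR. That call was lost without any 1 of the 4 fl/fl libraries and without CKO replicate 3 or 4, and 140 and 120 genes passed without CKO replicate 1 and replicate 2. A fit of the fl/fl libraries alone called 56 of 13307 genes, 3 higher and 53 lower on 2 October. In CKO, with both genotypes in the fit, 0 genes passed (0%), with 1316 at unadjusted p under 0.05 and a smallest adjusted p of 0.187 in edgeR. There Mmp8 stood at 1293 and 1469 CPM and then at 2701 and 2849 CPM, 1.01 ± 0.17.

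The genotypes differed in their date contrast. For 240 genes (1.8%) the difference of the 2 date contrasts, CKO minus fl/fl, passed in edgeR, 231 positive and 9 negative. In 237 of the 240 the dates were apart in opposite directions in the 2 genotypes, beside 12.8% of all genes. The contrast itself favours such genes, so the 237 are not a separate result. DESeq2 called 822, limma-voom 418 and the fit that took its spread from all 16 libraries 162, of which 128 were positive and 34 negative. The count turned on single libraries. It was 0 without fl/fl replicate 1 and 0 without fl/fl replicate 2, and 50, 44, 35 and 148 without fl/fl replicate 3, fl/fl replicate 4, CKO replicate 4 and CKO replicate 3. A cell left with 1 library was assumed to vary like the others. Across the 9649 genes at 10 CPM or more, the date differences of fl/fl and CKO had a Pearson correlation of -0.16 and a Spearman correlation of -0.25 over genes, which share libraries and are not replicates, and 39.5% had the same sign.

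Neutrophil genes made up the most complete group in this contrast. Of 21 tested neutrophil markers 17 passed, beside 1.8% of all genes, each positive. All 21 were lower in both later fl/fl libraries than in the earlier ones, beside 19.6% of all genes, 19 were higher in both later CKO libraries, beside 19.8%, and these 19 were opposite in the 2 genotypes, beside 7.51% of all genes in that direction. The count turned on the fit as well as on single libraries: 2 of 21 passed with all 16 libraries in the fit, 19 in limma-voom and 21 in DESeq2, 0 without fl/fl replicate 1 or fl/fl replicate 2, and 7 or 8 without fl/fl replicate 3, fl/fl replicate 4 or CKO replicate 4. In each of these fits all 21 were positive. The list had been part of earlier results on these data and is not independent evidence of its direction. Its median date difference was -1.40 in fl/fl and 1.11 in CKO, beside 0.093 and -0.029 for all genes, so that with genotype as a block it came to -0.14.

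S100a8 and S100a9, the subunits of calprotectin, Mmp8 and Ngp, a granule protein, are shown with the 250 bases upstream of their start sites because they are among the most abundant of these genes and moved together. The sequences are from RefSeq on GRCm38.p6, 5′ to 3′ on the gene's strand. Capitals mark TTNNGNAA or its reverse complement TTNCNNAA, the core letters of a C/EBP site, searched on both strands.
S100a8, chr3:90668821-90669070 (+): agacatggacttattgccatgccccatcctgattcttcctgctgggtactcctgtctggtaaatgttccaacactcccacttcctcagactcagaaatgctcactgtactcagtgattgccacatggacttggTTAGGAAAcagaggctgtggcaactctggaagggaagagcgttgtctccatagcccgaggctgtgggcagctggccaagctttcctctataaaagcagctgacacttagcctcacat
S100a9, chr3:90695722-90695971 (-): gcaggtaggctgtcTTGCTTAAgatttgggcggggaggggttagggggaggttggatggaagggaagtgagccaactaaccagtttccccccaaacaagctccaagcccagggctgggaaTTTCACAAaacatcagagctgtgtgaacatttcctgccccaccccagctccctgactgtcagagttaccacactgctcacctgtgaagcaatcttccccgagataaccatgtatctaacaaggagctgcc
Mmp8, chr9:7558179-7558428 (+): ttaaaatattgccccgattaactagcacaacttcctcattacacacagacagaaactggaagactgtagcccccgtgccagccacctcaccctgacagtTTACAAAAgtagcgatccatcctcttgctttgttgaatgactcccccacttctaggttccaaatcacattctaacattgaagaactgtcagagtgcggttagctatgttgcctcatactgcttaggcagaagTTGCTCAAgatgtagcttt
Ngp, chr9:110419558-110419807 (+): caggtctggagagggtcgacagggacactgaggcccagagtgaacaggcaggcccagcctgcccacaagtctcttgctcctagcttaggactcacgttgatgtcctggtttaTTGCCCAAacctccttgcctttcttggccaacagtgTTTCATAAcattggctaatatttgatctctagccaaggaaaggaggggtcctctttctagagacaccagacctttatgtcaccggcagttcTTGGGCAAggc
The motif is common: 36.8% of 32851 RefSeq promoter windows of this length held it. It was found in 9 of 18 neutrophil list windows matched by symbol (50.0%), in 2 of 11 pan-neuronal windows (18.2%) and in 3 of 11 myelinating Schwann windows (27.3%). A match is a description of letters and not a binding site.

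S100a8 read 76238 and 61905 CPM in fl/fl on 1 October and 23675 and 28801 CPM on 2 October. In CKO it read 19582 and 42836 CPM on the earlier date and 77443 and 77659 CPM on the later. The high libraries were thus fl/fl of 1 October and CKO of 2 October, and the genotype difference was 2.71 ± 0.44 with an adjusted p of 0.0194 in edgeR. At nearly the same size it did not pass without a filter on low counts (adjusted p = 0.0633), with all 16 libraries in the fit (0.14) or in limma-voom (0.0752). S100a9 gave 2.61 ± 0.32 (adjusted p = 0.00985), Ngp 2.59 ± 0.27, Mmp8 2.84 ± 0.25 and Anxa1, an annexin of granulocytes, 2.68 ± 0.27 (these 3 at adjusted p = 0.00951 in edgeR). With all 16 libraries in the edgeR fit none of these 4 passed, at adjusted p-values of 0.112 for S100a9, 0.108 for Ngp, 0.0707 for Mmp8 and 0.0548 for Anxa1.

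Of 22 macrophage genes 3 passed, beside 1.8% of all genes, Lyz2, Tyrobp and Fcer1g, named after their values were seen and all 3 also made by neutrophils. Lyz2, lysozyme, read 9011, 10941, 3891 and 5044 CPM in fl/fl replicates 1 to 4 and 4882, 5269, 11018 and 11543 CPM in CKO replicates 1 to 4. Its genotype difference was 2.31 ± 0.26 (adjusted p = 0.00951 in edgeR, and 0.0953 with all 16 libraries in the fit). Tyrobp, an adaptor of myeloid receptors, gave 2.57 ± 0.35 (adjusted p = 0.0125 in edgeR). The median of the macrophage list was -0.71 across dates and -0.99 for the genotype difference, which turned to 0.69 without fl/fl replicate 4 and to 0.86 without CKO replicate 1. Csf1r, the receptor of macrophage growth factor, read 316, 318, 98.3 and 595 CPM in fl/fl and 892, 42.5, 71.0 and 166 CPM in CKO, with overlapping dates in both.

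Summed over the list, neutrophil markers took 19.1% and 18.2% of gene counts in fl/fl on 1 October, and 8.85% and 9.06% on 2 October. In CKO they took 8.00% and 13.0%, then 19.8% and 20.3%. Satellite glia markers ran the other way, 2.62% and 2.40% then 4.18% and 3.38% in fl/fl, and 3.41% and 3.53% then 1.90% and 1.05% in CKO. Myelinating Schwann markers took 0.797% and 0.783% then 1.38% and 1.19% in fl/fl, and 1.24% and 1.31% then 0.881% and 0.682% in CKO. For these 3 lists the dates were apart in both genotypes and in opposite directions, which was not tested for the shares. All are shares of the same total, so where the neutrophil share rises the rest together must fall. The lists are therefore not separate observations.

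**Figure D2:**
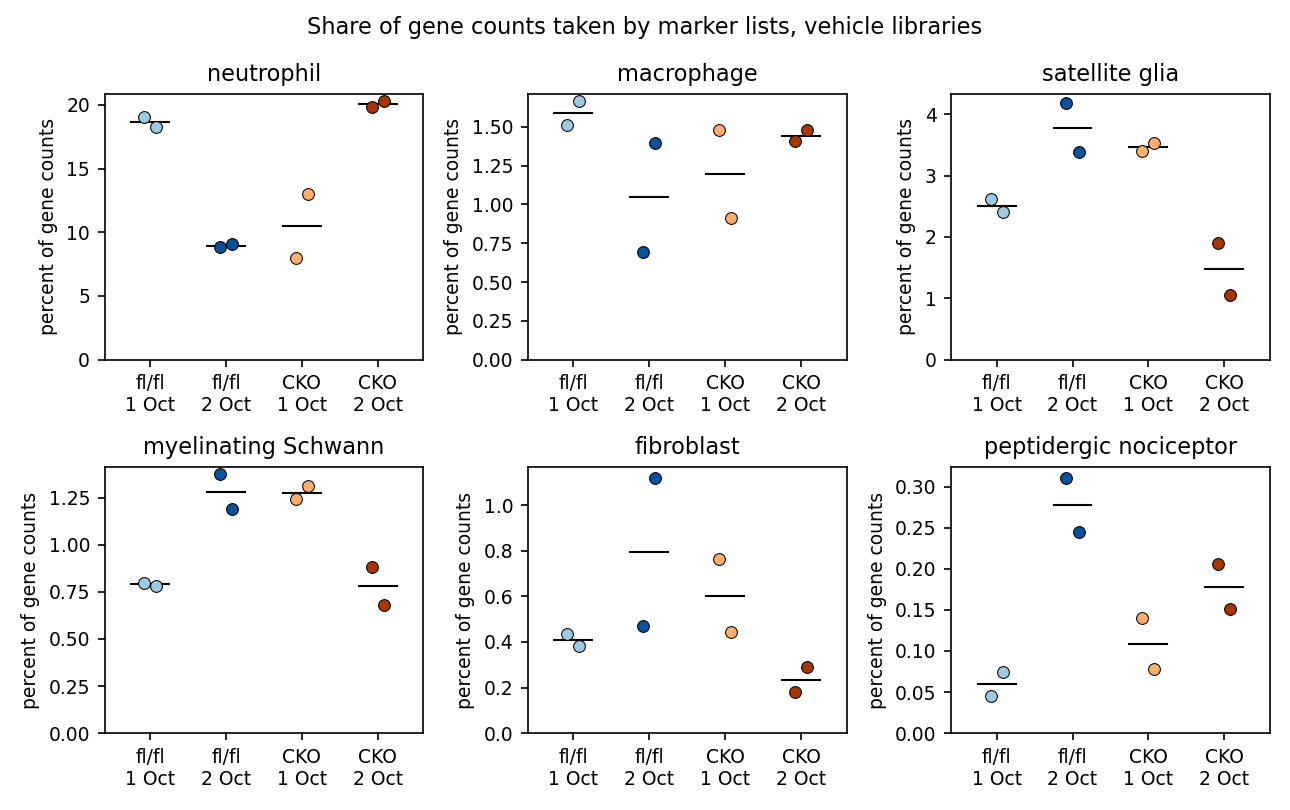
Percent of gene counts taken by 6 marker lists in the 8 vehicle libraries, by genotype and title date. Points are libraries and bars the mean of 2. Neutrophil shares were highest in fl/fl of 1 October (19.1% and 18.2%) and CKO of 2 October (19.8% and 20.3%), and peptidergic nociceptor shares were higher on 2 October in both genotypes.

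Glial and connective tissue lists had medians opposite in sign to the neutrophil list. The counts of their genes that passed stand beside 1.8% of all genes, a share at which lists of this size would hold few calls. Of 18 satellite glia genes 0 passed the genotype difference, with a median of -1.17, and of 19 myelinating Schwann genes 0 passed, with a median of -0.85, beside -0.19 for all genes. Apoe, the lipid carrier abundant in satellite glia, had -1.30 ± 0.31 (adjusted p = 0.0875 in edgeR). It read 20049, 18365, 26215 and 20708 CPM in fl/fl replicates 1 to 4 and 20606, 21479, 12789 and 8103 CPM in CKO replicates 1 to 4. In CKO both later libraries thus lay below both earlier ones. In fl/fl both lay above, the nearest at 20708 and 20049 CPM. Mbp, a myelin protein, had -0.61 ± 0.26, and Col1a2, a fibrillar collagen, -2.05 ± 0.48, and neither was called. Of 15 fibroblast genes 1 passed, and the list's median was -1.71. The gene that passed was Pi16, named after its values were seen, which went with the neutrophil genes at 160 and 226 then 57.8 and 76.6 CPM in fl/fl, and 66.1 and 99.8 then 275 and 312 CPM in CKO.

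**Figure D3:**
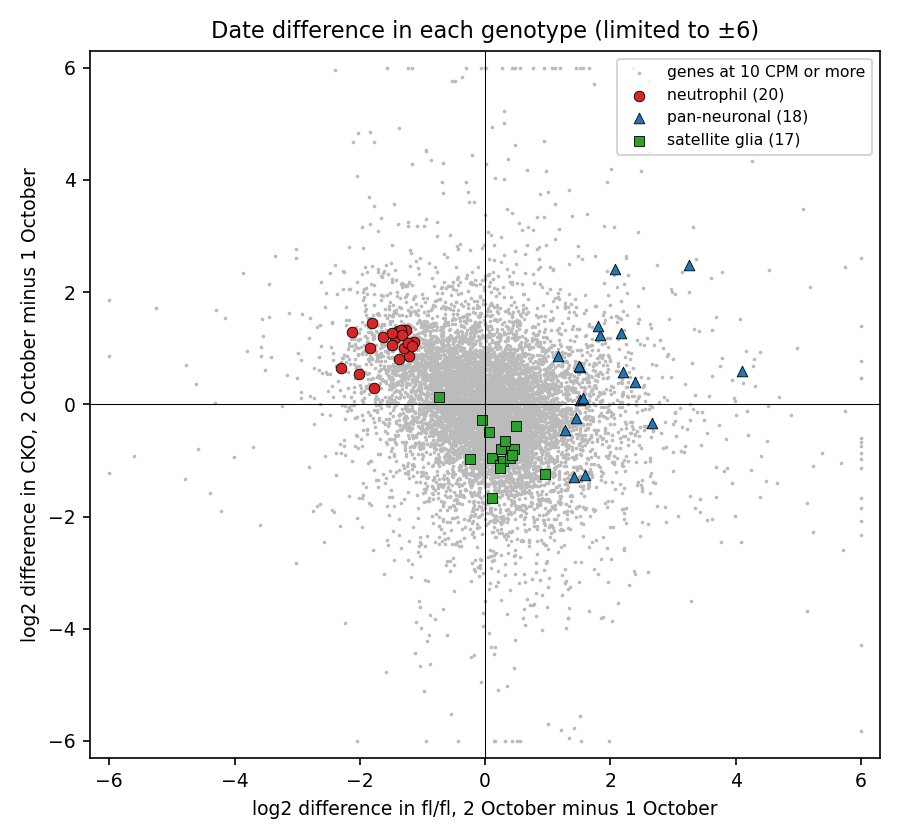
Date difference (log2, 2 October minus 1 October) in fl/fl on the horizontal axis and in CKO on the vertical axis, for genes at 10 CPM or more, limited to 6 in size. Neutrophil genes lie at upper left, satellite glia genes mostly at lower right, and pan-neuronal genes to the right of 0 in fl/fl, with a median of 1.70 in fl/fl and 0.58 in CKO.

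The remaining genes named for the genotype difference were chosen after their values were seen, as the largest in each direction with opposite dates and at least 5 CPM. The positive ones were Xpc, a DNA repair factor, at 6.29 ± 1.20, Myo1g, a myosin of blood cells, at 4.99 ± 1.01, Bmx, a kinase, at 4.88 ± 0.98, Isg20, an interferon-induced exonuclease, at 4.73 ± 0.95, Tnf at 4.41 ± 0.85 and Oas3, an antiviral enzyme, at 4.34 ± 0.69. Tnf read 90.1 and 97.5 then 26.3 and 53.3 CPM in fl/fl, and 18.6 and 6.70 then 85.3 and 143 CPM in CKO. It was thus high where the neutrophil share was high. The negative ones included Scg3, a secretory granule protein of neurons, at -2.5 ± 0.45, and Kcna1, a potassium channel of myelinated axons, at -1.81 ± 0.32 (adjusted p = 0.0271 in edgeR). Kcna1 read 349, 329, 388 and 454 CPM in fl/fl replicates 1 to 4 and 587, 555, 217 and 188 CPM in CKO replicates 1 to 4. Siae and Tpm2 had -4.41 ± 0.82 and -3.18 ± 0.64, and Susd5 and Ppfia4, each near 0 in both earlier fl/fl libraries, -12.92 ± 2.55 and -8.28 ± 1.63.

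Inflammatory lists shared the sign of the neutrophil list. Of 27 NF-kB and TNF family genes 3 passed, beside 1.8% of all genes, Tnf, Cxcl2 and Tnfrsf1b, named after their values were seen, with a list median of 1.05, and 10 were lower in fl/fl and higher in CKO without overlap, beside 7.51% of all genes. With all 16 libraries in the fit 0 of the 27 passed in edgeR, where Tnf had an adjusted p of 0.105 and Cxcl2 of 0.0982. Cxcl2, a neutrophil attractant, read 273 and 336 then 75.8 and 125 CPM in fl/fl, and 117 and 236 then 398 and 660 CPM in CKO, 3.19 ± 0.60 (adjusted p = 0.0369 in edgeR). Nfkbia, the inhibitor of NF-kB, gave 2.09 ± 0.50 and was not called. Of 25 immediate-early genes 2 passed, beside the same 1.8%, Fosl2 and Ier3, also named after their values were seen, with a median of 0.93. Fos, the most abundant of them, gave 0.29 ± 0.29. Of 22 proliferation genes and 21 interferon-induced genes 0 passed, beside 1.8% of all genes, with medians of 1.93 and 1.70. The neutrophil share moved with these lists (8.00% to 20.3% over the 8 libraries), and its part in their values was not tested.

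None of the pan-neuronal genes (0 of 18) was apart in opposite directions in the 2 genotypes, beside 12.8% of all genes. The mural and sodium channel lists also had 0, so the count is not particular to this list. Of 18 pan-neuronal genes 14 were higher without overlap on 2 October in fl/fl, beside 24.3% of all genes, and 6 in CKO, beside 19.8%. In either genotype 0 were lower, beside 19.6% of all genes in fl/fl and 18.2% in CKO. The genotype difference passed for 0, beside 1.8% of all genes. The Scn10a genotype difference was -1.39 ± 0.51 (adjusted p = 0.277 in edgeR), and that of Sncg, an abundant synuclein of sensory neurons, -1.03 ± 0.34 (adjusted p = 0.225 in edgeR). In contrast 12 of 18 satellite glia genes were lower without overlap in CKO, beside 18.2% of all genes, and 5 of these were also higher in fl/fl, beside 5.26% of all genes in that pairing of directions.

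**Figure D4:**
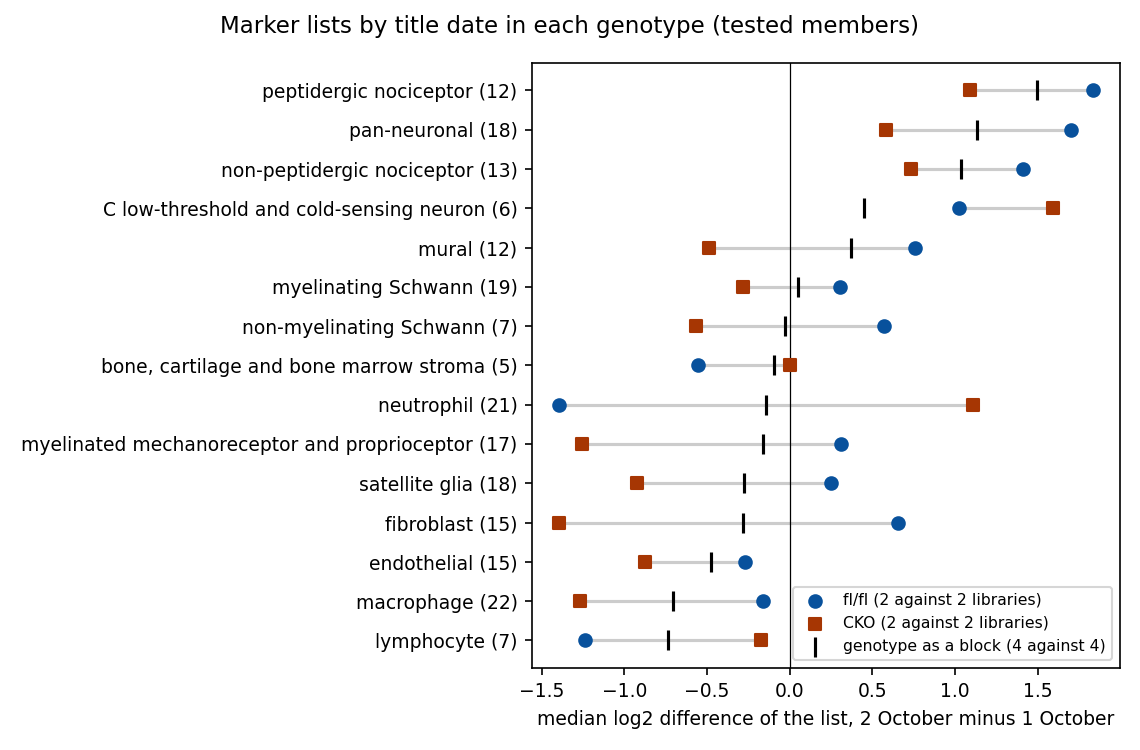
Median log2 difference of each marker list between the title dates, for fl/fl (circles, 2 against 2 libraries), CKO (squares, 2 against 2) and with genotype as a block (bars, 4 against 4), with the number of tested members in brackets. The neutrophil list sits at -1.40 in fl/fl and 1.11 in CKO, while the pan-neuronal list is above 0 in both, at 1.70 and 0.58.

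The PTX libraries, also from a pair of consecutive title dates with 2 libraries of each genotype on each, gave a different picture. Between 24 and 25 September 1416 of 13633 genes (10.4%) passed in edgeR, 936 higher and 480 lower on the later date, a split that became 852 and 684 with upper-quartile scaling. 1435 genes (10.5%) were higher without overlap and 1666 (12.2%) lower. The count ranged from 621 to 1419 when a library was left out, lowest without CKO replicate 2 and next lowest without fl/fl replicate 1 (681) and fl/fl replicate 2 (894). In these libraries 17 of 21 neutrophil genes rose on the later date, beside 6.87% of all genes, with a list median of 5.47, and S100a8 rose by 5.25 ± 0.90 (log2), from a mean of 1467 CPM to 31235 CPM. In vehicle S100a8 spanned 19582 to 77659 CPM with overlapping dates.

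The pan-neuronal list had medians of opposite sign by date in PTX and in vehicle. In PTX 10 of 18 pan-neuronal genes fell on the later date, beside 3.52% of all genes, and the list median was -0.85, against 1.14 in vehicle and -0.11 for all genes in PTX. Scn10a fell in PTX from a mean of 1129 CPM to 390 CPM (-1.53 ± 0.19, adjusted p = 0.0026 in edgeR), both above every vehicle library. In 1 model of all 16 libraries the vehicle date contrast minus the PTX date contrast passed for 1114 of 15104 genes (7.38%), 331 positive and 783 negative. Scn10a had a difference of 3.49 ± 0.29 (adjusted p = 6.66e-06 in edgeR), Prph 2.42 ± 0.34, Calca 2.23 ± 0.36, Tubb3 2.30 ± 0.46 and Prdm12 3.22 ± 0.56. For S100a8 it was -5.20 ± 0.59. Treatment and the pair of title dates cannot be told apart, since each treatment has its own 2 dates.

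**Figure D5:**
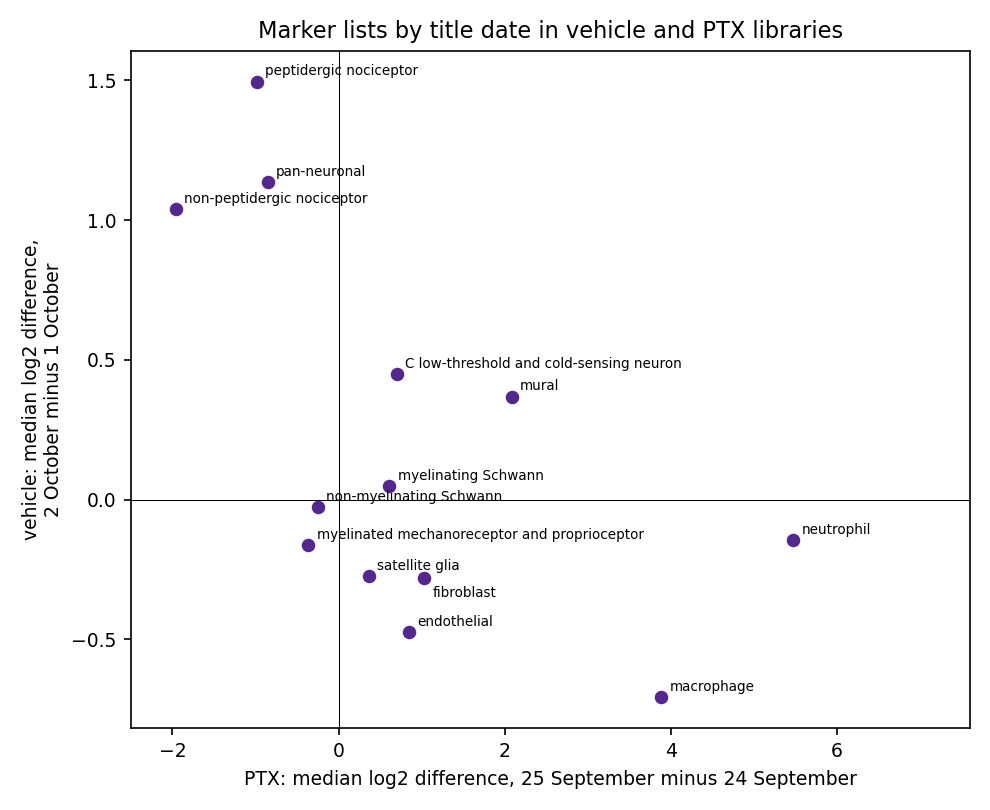
Median log2 difference of marker lists between the later and the earlier title date, in PTX (horizontal axis) and in vehicle with genotype as a block (vertical axis), for lists with at least 5 members tested in PTX. The 3 nociceptor and pan-neuronal lists lie at upper left, at 1.14 in vehicle and -0.85 in PTX for pan-neuronal genes, and the neutrophil list lies at 5.47 in PTX and -0.14 in vehicle.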

How the data were processed

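RNA was measured in 16 libraries, of which the 8 labelled Water are described, with the 8 PTX libraries for comparison. Per the labels' protocols stranded mRNA libraries were made from about 500 ng of RNA and sequenced from 1 end over 50 bases. Reads were, per the submitters' processing notes, converted with bcl2fastq, aligned to mm9 with TopHat2 and counted with HTSeq, and versions, annotation and strand setting are not given in the sources used here, so reads of a gene and an overlapping antisense gene cannot be told apart. The deposited values are raw counts per gene for 22609 gene entries, and 5 HTSeq summary lines were left out of library sizes and tests.

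After filterByExpr and TMM scaling, edgeR 4.0.16 in R 4.3.3 fitted its robust quasi-likelihood model as genotype plus date, and as 4 means of genotype by date for the dates inside each genotype and their difference. The difference from PTX came from 1 model with 8 group means. Each p is two-sided, and adjusted p-values are Benjamini-Hochberg values over every gene in the fit, with a threshold of 0.05. CPM scale each count to its library's counts on tested genes, adjusted by its TMM factor, separately for the vehicle and the PTX libraries. Single values were compared by exact permutation on log2(CPM + 1). DESeq2 1.42.0 and limma 3.58.1 (voom) were alternatives. The gene test was also run on simulated counts, and the share of differences it found there is not reported here. The 0 calls between dates therefore do not show that no gene differs. The precision of a value is limited by 2 libraries per genotype and date.

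Named genes were Ltbr and Scn10a, up to 12 called genes in each direction by size of difference, filled to 8 by smallest p where fewer passed, all without overlap and with at least 5 CPM on the higher date, and up to 4 called members of each list or its 2 most abundant where none was called. There were 36 lists (18 of markers, 18 of pathways, 14 members matched through an older symbol). The members, lists and rules were chosen with earlier results of these data known. Lists got no test of their own. Promoters were matched by symbol to RefSeq windows on GRCm38.p6, another build than that of the counts. Some named genes are not reported here.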

Additional observations from a re-analysis of the deposited data

Results flagged for a closer look

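Single libraries stood far from the other 3 of their date in 7 of 90 groups of 4 values checked, and chance flags about 1 in 20. The macrophage share was 0.696% in fl/fl replicate 3, with the other later libraries at 1.40% or more. In CKO replicate 1 the fibroblast share was 0.762%, the red cell share 0.0175% and Cherp 116 CPM, each the highest of the earlier date. The bone, cartilage and marrow stroma share was 0.0871% in CKO replicate 4. Prkaa2 at 0.111 CPM in fl/fl replicate 2 and Ttk at 0.158 CPM in fl/fl replicate 4 were the only values above 0 of their date and rest on 1 and 2 counts.

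The date difference in CKO minus that in fl/fl is given for 20 genes that passed in edgeR, of which 8 passed with all 16 libraries in the fit. In log2 units it was 2.71 for S100a8, 2.61 for S100a9, 2.84 for Mmp8, 2.59 for Ngp, 2.31 for Lyz2, 2.57 for Tyrobp, 2.68 for Anxa1, 3.19 for Cxcl2, 6.29 for Xpc, 4.99 for Myo1g, 4.88 for Bmx, 4.73 for Isg20, 4.41 for Tnf and 4.34 for Oas3. It was -12.92 for Susd5, -8.28 for Ppfia4, -4.41 for Siae, -3.18 for Tpm2, -2.5 for Scg3 and -1.81 for Kcna1. Susd5 had at most 1 count and Ppfia4 at most 3 in the fl/fl libraries of 1 October, so the size of their fitted differences depends on the prior count.

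The date difference in vehicle minus that in PTX passed for 11 genes of the vehicle comparison. It was 3.49 for Scn10a, 10.09 for Prkaa2, 3.22 for Prdm12, 2.04 for Sgpp2, 2.42 for Prph, 2.54 for Cacna2d1, 2.14 for Tubb2a, 8.46 for Mpv17l, 2.30 for Tubb3, 2.23 for Calca and -1.99 for Exosc10.

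The shares of 7 marker lists were higher in both later libraries of one genotype and lower in both of the other, a difference that was not tested. In percentage points, CKO minus fl/fl, it was 19.2 for neutrophil, -3.27 for satellite glia, -0.987 for myelinating Schwann, -0.755 for fibroblast, -0.183 for non-myelinating Schwann, -0.0886 for myelinated mechanoreceptor and proprioceptor and -0.00876 for itch neuron markers. All are shares of the same total and not independent.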

How the results depend on the processing

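No paired analysis was possible because the 2 dates share no replicate number: 1 October holds replicates 1 and 2 and 2 October replicates 3 and 4. Across dates, where the main fit had genotype as a block, 19 of 22 alternatives gave 0 calls. The others gave 27 with all 16 libraries in the fit, 42 with DESeq2 and 56 with fl/fl libraries alone. The 22 include fits without the block and fits of a single genotype. Leaving out a library gave 0 throughout, while genes without overlap, 368 in all, numbered 640 to 852 with 3 libraries on one side, where fewer libraries make separation easier. The fl/fl count of 1 became 52 with RLE size factors, 295 without a filter, 15 at 5 CPM in 4 libraries and 18 with all 16 libraries, and 0 to 140 when a library was left out. The CKO count of 0 became 145 without a filter, 14 with all 16 libraries and 0 to 44 when a library was left out. The genotype difference of 240 became 509 without a filter, and 822 with DESeq2 and 418 with limma-voom, both added after seeing the data, 162 with all 16 libraries in the fit, and 0 to 355 when a library was left out. The PTX count of 1416 ranged from 621 to 1419 when a library was left out, and upper-quartile scaling split it into 852 higher and 684 lower against 936 and 480. The cause of these shifts was not tested. Of 20 genes with a called genotype difference and values above, 8 passed with all 16 libraries, 14 in limma-voom, 19 without a filter and 0 to 18 when a library was left out. Permutation within genotype gave the Scn10a difference of 1.86 on log2(CPM + 1) an exact p of 0.0556, the smallest it can give, so it says nothing on stability. Tubb3 turned to -0.043 with pan-neuronal markers as a covariate, a list that holds both Tubb3 and Nefl. Nefl turned to -1.95 with that covariate, -0.457 in CKO alone, -0.112 without fl/fl replicate 2 and -0.308 without fl/fl replicate 4, within -0.308 to 1.08 when any library was left out. Of the 21 genes recomputed in this way between the dates, the other 19 kept their sign, and another scaling moved the all-gene median by less than 0.1.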
